A study of Mus musculus with 4 samples.

Results

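Dual-specificity phosphatases of the MAP kinases remove phosphate from both the threonine and the tyrosine of the activation loop and thereby switch ERK, JNK or p38 kinases off. The 10 genes Dusp1, Dusp2, Dusp3, Dusp4, Dusp5, Dusp6, Dusp7, Dusp8, Dusp10 and Dusp14 were taken by symbol from a table of 20032 genes, and all 10 were found. RNA was sequenced from olfactory bulbs of mice at postnatal day 11 in 4 libraries. The 2 control libraries came from littermates without Cre, whose alleles at Sp8 and Sp9 the labels do not give. The 2 mutant libraries, called DCKO (double conditional knockout), came from mice with the genotype Dlx5/6-CIE, Sp8 Flox/Flox and Sp9 Flox/Flox. All mice had mixed ancestry from the strains C57BL/6J, 129S6 and CD1. The Dlx5/6-CIE transgene drives Cre from a Dlx5/6 enhancer in precursors of GABAergic neurons, so the alleles are meant to recombine in that lineage and not in other bulb cells. The labels do not say whether a library is 1 animal or a pool, or whether replicates came from separate animals, and the p-values below measure the spread between these libraries.

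Several of these phosphatases are themselves products of MAP kinase signalling. Growth factors or synaptic activity switch on ERK, and ERK with its transcription factors then induces Dusp genes whose proteins dampen the same kinases, which makes the transcripts a common readout of recent pathway activity. Dusp1, Dusp2, Dusp4 and Dusp5 encode inducible nuclear enzymes, Dusp6 and Dusp7 encode cytoplasmic enzymes that prefer ERK, and Dusp8 and Dusp10 encode enzymes that prefer JNK and p38. Dusp3 and Dusp14 encode small atypical enzymes without the kinase-docking domain of the others.

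The promoters of 3 members are shown because they hold binding motifs of factors that act downstream of ERK and calcium signals, the cyclic AMP response element (CRE) bound by CREB and the CArG box bound by serum response factor. The sequences are from RefSeq (GRCm38.p6), run 5′ to 3′ on the strand of the gene, and leave out bases that GENCODE M21 places in an exon of that gene. Capitals mark matches to the CRE (TGACGTCA), to its core (TGACG, on either strand) or to the CArG box. The windows are chr17:26508520-26508722 (- strand) for Dusp1, chr19:53528895-53529108 (+ strand) for Dusp5 and chr7:142095285-142095534 (- strand) for Dusp8. Those of Dusp1 and Dusp8 lie inside the spans that GENCODE M21 gives these genes, so the RefSeq starts used differ from the GENCODE 5′ ends. The RefSeq start of Dusp5 differs too: the 250 bases before it end at 53529144, whereas the GENCODE gene starts at 53529109. Distances below are counted from the RefSeq starts.
Dusp1: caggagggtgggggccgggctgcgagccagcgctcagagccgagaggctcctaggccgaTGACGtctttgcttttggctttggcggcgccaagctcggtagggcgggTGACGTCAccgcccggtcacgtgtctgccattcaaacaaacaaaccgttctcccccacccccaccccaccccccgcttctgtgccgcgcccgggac
Dusp5: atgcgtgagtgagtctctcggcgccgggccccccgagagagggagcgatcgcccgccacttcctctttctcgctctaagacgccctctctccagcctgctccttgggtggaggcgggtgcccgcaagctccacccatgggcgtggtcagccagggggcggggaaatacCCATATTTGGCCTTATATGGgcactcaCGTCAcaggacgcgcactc
Dusp8: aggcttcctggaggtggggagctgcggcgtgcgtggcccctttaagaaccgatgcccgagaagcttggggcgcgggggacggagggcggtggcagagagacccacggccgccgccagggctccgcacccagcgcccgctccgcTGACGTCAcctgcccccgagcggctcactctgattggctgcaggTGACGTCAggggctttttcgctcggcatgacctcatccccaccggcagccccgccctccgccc

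RefSeq promoters were found for 9 of the 10 members, all but Dusp4, and were searched on both strands over the 250 bases before the start. The full CRE was found in 2 of the 9, Dusp1 and Dusp8, against 1.55% of all 32851 promoter windows of that length. In Dusp1 it began 143 bases before the start, and Dusp8 held 2 copies, which began 107 and 63 bases before it. Each full CRE also counts as a match to the core on both strands. The core was found in 3 of the 9 (17.8% of all windows), adding Dusp5. The CArG box was found in Dusp5 alone of the 9 (1.47% of all windows), as a directly adjoining pair that began 82 and 72 bases before the start. GC boxes (GGGCGG), the motif class that Sp family factors are known to bind, were found in 7 of the 9 against 32.7% of all windows. The member promoters were 56.4% to 77.2% G and C against a median of 52.4% over all windows. The AP-1 site (TGANTCA) was found in 0 of the 9 (6.75% of all windows), the ETS core (CCGGAAGT) in 0 (2.88%) and TATAAA in 0 (12.4%). These matches describe letters in a window and were not tested for binding.

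The targeted genes were low in both libraries labelled DCKO. Sp8 stood at 32.0 and 26.7 FPKM in control bulbs and at 1.68 and 2.03 in DCKO, and Sp9 at 24.0 and 30.7 FPKM against 0.0674 and 0.236. FPKM is a fragment count divided by transcript length and library depth. The deposited scaled fragment counts summed to between 14632502 and 15400982 per library. Xist stood at 77.0 FPKM in DCKO replicate 1 and at 0.0252 to 0.0355 FPKM in the other 3 libraries, and 4 Y-linked genes summed to 0 FPKM in DCKO replicate 1 and to 51.0 to 55.1 FPKM in the others. The DCKO libraries thus differed from each other in sex and cannot have come from the same animal. Values without DCKO replicate 1 are given for the named genes whose call changes. In limma on log2(FPKM + 1), 13434 genes that averaged 1 FPKM or more over the 4 libraries were tested, and a gene was called at a Benjamini-Hochberg adjusted p below 0.05. With 2 libraries against 2, an exact two-sided permutation test of a single gene cannot go below p = 0.333.

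The MAP kinase phosphatases were lower in the DCKO bulbs. Of the 10 members, 8 fell and 0 rose in limma, against 14.3% of all tested genes called lower and 13.0% called higher. At an unadjusted p below 0.05 the counts were also 8 and 0, where 5790 of all 13434 tested genes passed in either direction. That number is also the background of the unadjusted counts below. The members were chosen with earlier results of these data known, so these counts are not a test of the list. Dusp1, Dusp4, Dusp5, Dusp6, Dusp7, Dusp8, Dusp10 and Dusp14 fell, and Dusp2 and Dusp3 did not pass the test. The median log2 change of the 10 was -0.81, against -0.02 over all tested genes. The ranges of the groups did not overlap for 8 members lower in DCKO (37.6% of all tested genes) and for 1 member higher in DCKO, Dusp3 (33.9% of all tested genes). All 10 members passed the filter on low values, Dusp2 and Dusp10 only narrowly and through the controls, with means over the 4 libraries of 1.03 and 1.05 FPKM. With no filter the count of members called lower was also 8. Leaving out control replicate 2 reduced it to 5. In bulk RNA, fewer cells of a type and less RNA per cell cannot be told apart.

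**Figure D1:**
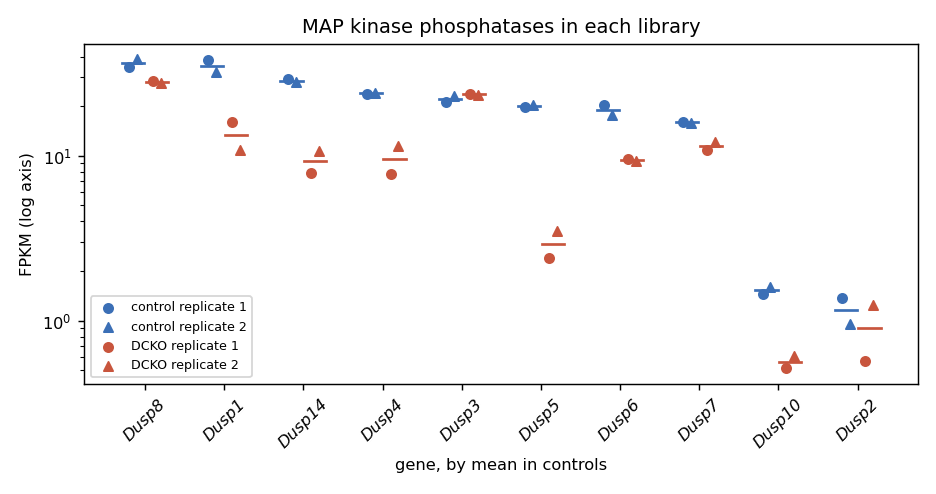
FPKM (log axis) of the 10 phosphatase genes in each of the 4 libraries, with blue for control, red for DCKO, circles for replicate 1, triangles for replicate 2 and lines for group means. The red points lie below the blue ones for 8 genes, Dusp5 shows the widest gap, and the groups of Dusp2 overlap.

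Among the inducible nuclear enzymes, Dusp5, Dusp1 and Dusp4 fell and the sparsely detected Dusp2 did not pass. Dusp5 encodes a nuclear phosphatase selective for ERK (ENSMUSG00000034765.6, chromosome 19, 53529109 to 53542431, + strand, GRCm38). It stood at 19.7 and 20.3 FPKM in control bulbs and at 2.39 and 3.48 in DCKO. Both DCKO libraries lay far below both controls, and the mean was 6.82-fold lower (20.02 ± 0.446 against 2.94 ± 0.769 FPKM, SD, n = 2 libraries per group). On the log2 scale the change was -2.43 (95% confidence interval -2.81 to -2.05, SE 0.15, limma adjusted p = 0.00169), larger in size than that of 99.4% of tested genes. The antisense gene AC137853.2 overlaps Dusp5 on the other strand, and without a stated strand setting reads from it cannot be told apart. Behind these values were 213 and 214 scaled fragments in the controls and 25.4 and 37.2 in DCKO.

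Dusp1, an immediate early gene whose product acts on p38, JNK and ERK, stood at 38.3 and 32.1 FPKM in control bulbs and at 16.0 and 10.8 in DCKO. The groups did not overlap, though each spread more than for most other members, and the mean fell by 61.8% (35.2 ± 4.39 against 13.4 ± 3.68 FPKM, SD, n = 2 libraries per group). On the log2 scale the change was -1.34 (95% confidence interval -1.85 to -0.84, SE 0.20, limma adjusted p = 0.0122). The gene lies on chromosome 17, 26505590 to 26562128, - strand. That span overlaps Ergic1 and the pseudogene Gm8225 on the other strand, and the pseudogene AC122252.4 and the intronic gene AC122252.1 on its own strand. Dusp4, whose product is a nuclear phosphatase of ERK and JNK (chromosome 8, 34807297 to 34819894, + strand), stood at 23.7 and 24.1 FPKM in control bulbs and at 7.75 and 11.5 in DCKO. The controls agreed closely and the DCKO libraries were both low, with a 2.48-fold lower mean (log2 change -1.25, SE 0.18, limma adjusted p = 0.0114). Dusp2, a nuclear phosphatase best known from lymphocytes, stood at 1.37 and 0.955 FPKM in control bulbs and at 0.569 and 1.25 in DCKO. Its groups overlapped, and the test did not separate them (log2 change -0.20, 95% confidence interval -0.80 to 0.41, limma adjusted p = 0.554). With 12.7 to 30.2 scaled fragments per library, a difference within that interval was not detectable at this depth.

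The cytoplasmic ERK phosphatase genes Dusp6 and Dusp7 fell, Dusp6 more than Dusp7 in size of change, a difference that was not tested. Dusp6, a feedback inhibitor that growth factor signals induce through ERK (chromosome 10, 99263231 to 99267489, + strand), stood at 20.3 and 17.7 FPKM in control bulbs and at 9.52 and 9.36 in DCKO. The DCKO libraries were almost equal to each other and the mean was 2.01-fold lower (log2 change -0.93, SE 0.09, 95% confidence interval -1.17 to -0.70, limma adjusted p = 0.00478). Dusp7 (chromosome 9, 106368632 to 106375724, + strand) was at 16.0 and 15.9 FPKM in control bulbs and at 10.9 and 12.1 in DCKO. The groups did not overlap, and the mean fell by 27.9% (log2 change -0.44, SE 0.08, 95% confidence interval -0.65 to -0.23, limma adjusted p = 0.0203). The call of Dusp7 was lost without control replicate 1 (limma adjusted p = 0.0825) or control replicate 2 (0.0850), with log2 changes of -0.44 and -0.45.

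Dusp8 and Dusp10, the members that prefer JNK and p38, fell as well, with calls that were lost when some single libraries were left out. Dusp8, a gene strongly expressed in brain (chromosome 7, 142079490 to 142095843, - strand), stood at 34.5 and 38.4 FPKM in control bulbs and at 28.3 and 27.6 in DCKO. Its groups did not overlap, and it had the highest mean FPKM of the members in both genotypes, with a fall of 23.4% (log2 change -0.37, SE 0.08, 95% confidence interval -0.57 to -0.17, limma adjusted p = 0.0284). Dusp10 (chromosome 1, 184013302 to 184075636, + strand) was at 1.45 and 1.61 FPKM in control bulbs and at 0.515 and 0.614 in DCKO. Both DCKO libraries lay below the controls at a low level of expression, with a 2.70-fold lower mean (log2 change -0.69, SE 0.15, limma adjusted p = 0.0292). The log2(FPKM + 1) scale understates the change of such a low gene, and with a pseudocount of 0.1 its log2 change was -1.29. Dusp10 overlaps the protein-coding gene 1700056E22Rik on the other strand, and Dusp8 overlaps the noncoding gene Gm32786 on the other strand. The calls of both genes were lost without control replicate 2 (limma adjusted p = 0.156 for Dusp8 and 0.0737 for Dusp10), DCKO replicate 1 (0.0682 and 0.0715) or DCKO replicate 2 (0.0714 and 0.0532).

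Of the small atypical enzymes, Dusp14 fell and Dusp3 did not pass the test. Dusp14 (ENSMUSG00000018648.15, chromosome 11, 84048041 to 84069261, - strand), known as a regulator of MAP kinase signalling in T cells, stood at 29.3 and 27.8 FPKM in control bulbs and at 7.85 and 10.7 in DCKO. The groups were far apart, with a 3.08-fold lower mean (28.6 ± 1.01 against 9.27 ± 2.01 FPKM, SD, n = 2 libraries per group). Its log2 change of -1.54 (95% confidence interval -1.91 to -1.16, SE 0.15, limma adjusted p = 0.00448) was the next in size after Dusp5 among the members. Dusp3, a phosphatase of ERK and JNK that is not known as an inducible gene (chromosome 11, 101971143 to 101987013, - strand), stood at 21.1 and 22.9 FPKM in control bulbs and at 23.8 and 23.4 in DCKO. The DCKO libraries lay just above the controls, by less than the test could separate from 0 (log2 change 0.10, 95% confidence interval -0.09 to 0.28, limma adjusted p = 0.355). Dusp3 overlaps Gm20659 and Cfap97d1 on the other strand.

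**Figure D2:**
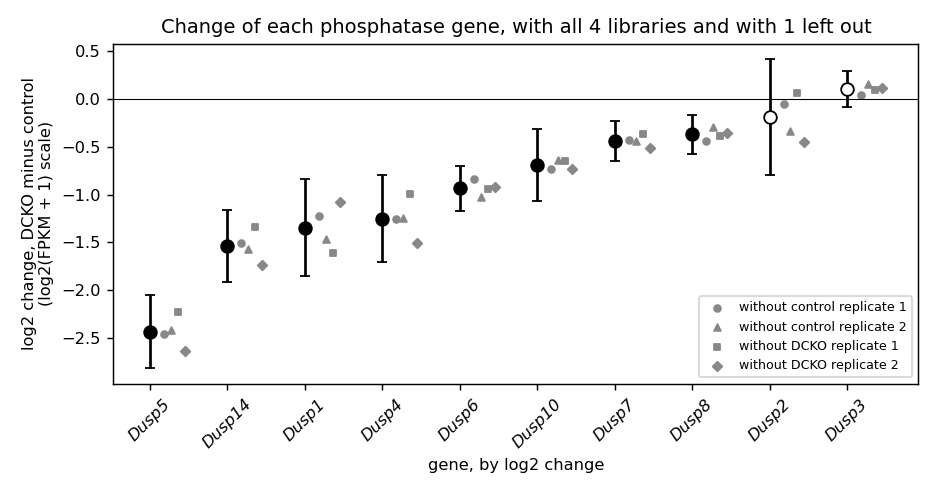
Log2 change (DCKO minus control, log2(FPKM + 1) scale) of each phosphatase gene with its 95% confidence interval in black, filled where called, and the value with 1 library left out in grey. Dusp5 lies lowest at -2.43, and Dusp2 is the gene whose value crosses 0 when a library is left out, to 0.063 without DCKO replicate 1.

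The order of the members changed with the genotype. In the controls, mean FPKM ran from Dusp8 (36.5) through Dusp1 (35.2), Dusp14 (28.6), Dusp4 (23.9), Dusp3 (22.0), Dusp5 (20.02), Dusp6 (19.0) and Dusp7 (16.0) to Dusp10 (1.53) and Dusp2 (1.16). In that order the ranges of Dusp8 and Dusp1 overlapped, as did those of Dusp5 and Dusp6. In DCKO, Dusp8 (27.9) and Dusp3 (23.6) stood above the rest without overlap. Dusp1 (13.4), Dusp7 (11.5), Dusp4 (9.62), Dusp6 (9.44) and Dusp14 (9.27) followed, each overlapping the next, and Dusp5 (2.94), Dusp2 (0.908) and Dusp10 (0.565) came last, with overlap between the last 2. The rank of Dusp5 rests on the transcript length used: its FPKM and scaled counts together imply a length of 0.711 kb, against 2.47 kb for its GENCODE transcript. The ratio of its mean FPKM between genotypes does not depend on that length. Its change on the log2(FPKM + 1) scale does, since the added 1 weighs more at a lower FPKM. With a pseudocount of 0.1 its log2 change was -2.75. The ranks of other members rest on such lengths too. The implied length was 6.13 kb for Dusp3 and 3.89 kb for Dusp10, against longest GENCODE transcripts of 4.445 kb and 2.792 kb.

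Summed over the 10 members, FPKM fell by 46.4%, from 205.7 and 201.8 in the controls to 107.5 and 110.8 in DCKO. The DCKO sums were close to each other, although single members differed between the DCKO libraries in opposite directions. Dusp2, Dusp4, Dusp5, Dusp7, Dusp10 and Dusp14 were higher in DCKO replicate 2 than in replicate 1, and Dusp1, Dusp3, Dusp6 and Dusp8 were lower. Dusp3 made up 10.3% and 11.4% of the sum in control bulbs and 22.1% and 21.1% in mutant bulbs. The share of Dusp8 went from 16.8% and 19.0% to 26.3% and 24.9%. The share of Dusp5 went the other way, from 9.58% and 10.1% to 2.23% and 3.14%. These shares were not tested. The sum and the shares rest on the transcript lengths used, as the ranks do. Dusp5 weighs more in them than it would at its GENCODE length of 2.47 kb, since the implied 0.711 kb is shorter.

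**Figure D3:**
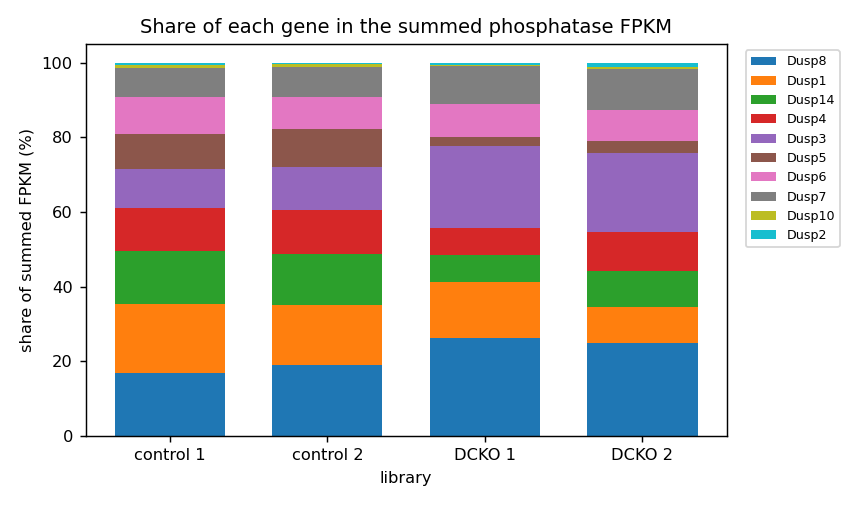
Share of each gene in the summed FPKM of the 10 phosphatases (percent) in each of the 4 libraries, as stacked bars that start at 0. The shares of Dusp8 and Dusp3 are larger in the DCKO bars, and those of Dusp5 and Dusp14 are smaller.

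Over the 4 libraries, the tested genes with the profile closest to that of Dusp5 were Stac2, Gng4 and Nxph1, at Euclidean distances of 0.12, 0.15 and 0.16 between centred log2(FPKM + 1) values. Stac2, which encodes an adaptor of calcium channels, stood at 16.5 and 17.8 FPKM in control bulbs and at 2.21 and 3.06 in DCKO. Gng4, a G protein subunit, stood at 189.7 and 201.7 FPKM against 27.0 and 40.0, and Nxph1, a secreted ligand of neurexins, at 22.7 and 24.7 against 2.80 and 3.63. All of them were lower in both DCKO libraries, with the higher of the DCKO values in replicate 2, as for Dusp5. That pattern follows from their selection by likeness to Dusp5. With 4 libraries this likeness is a description.

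No other phosphatase of the family passed as lower, though members and lists were chosen with earlier results of these data known. Of 11 tested dual-specificity phosphatases outside the 10 members, 0 fell in limma and 1 rose, the same counts as at an unadjusted p below 0.05, with a median log2 change of 0.04. Dusp26, a neural phosphatase, rose from 14.4 and 15.8 FPKM in control bulbs to 19.4 and 22.4 in DCKO (log2 change 0.44, limma adjusted p = 0.0320). The call of Dusp26 was lost without control replicate 1 (limma adjusted p = 0.114), control replicate 2 (0.0612) or DCKO replicate 2 (0.0679). Dusp16, another classical enzyme that prefers JNK and p38, stood at 3.09 and 2.40 FPKM against 3.27 and 3.03 and did not pass (adjusted p = 0.418). Dusp9, a cytoplasmic ERK phosphatase, lay below the filter at 0.392 to 0.611 FPKM in the 4 libraries, as did Dusp13 and Dusp27. Of the tyrosine phosphatases that act on MAP kinases, 0 of 2 tested genes passed in limma, and 1 was lower at an unadjusted p below 0.05. Ptpn5, the striatum-enriched phosphatase of ERK, stood at 13.6 and 18.2 FPKM in control bulbs and at 8.33 and 11.9 in DCKO (log2 change -0.61, limma adjusted p = 0.0846). It passed without control replicate 1 (limma adjusted p = 0.0401). Ptprr stood at 3.72 and 3.43 against 3.15 and 2.57 FPKM (adjusted p = 0.187), and Ptpn7 lay below the filter.

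Genes of the kinase cascades changed in both directions. In the cascade from Ras to ERK, 4 of 13 tested genes fell and 2 rose, with a median log2 change of -0.069. Over all tested genes 14.3% were called lower and 13.0% higher, which is also the background of the lists and markers below. Mapk3, which encodes an ERK kinase, stood at 97.5 and 94.5 FPKM in control bulbs against 117.4 and 99.1 in DCKO and did not pass (log2 change 0.17, limma adjusted p = 0.256), but passed as higher without DCKO replicate 2 (adjusted p = 0.0487). Map2k1, which encodes a MEK kinase upstream of ERK, fell from 97.2 and 99.4 FPKM to 36.4 and 37.9 (log2 change -1.38, limma adjusted p = 0.000959). The scaffold gene Ksr1 fell too (-0.94, limma adjusted p = 0.00324), as did Grb2, an adaptor between receptors and Ras (-0.83), and the Raf kinase gene Braf (-0.29, adjusted p = 0.0490). Nras (0.50) and the adaptor gene Shc1 (0.39) rose. Braf is named after its values were seen. The calls of Map2k1, Ksr1 and Grb2 held without any single library, whereas that of Nras was lost without control replicate 2 (limma adjusted p = 0.0674). Those of Shc1 and Braf were lost without any 1 of the 4 libraries. Without DCKO replicate 1 the log2 changes of Shc1 and Braf were 0.41 and -0.25.

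In the JNK and p38 cascades the called changes were small. Of 13 tested genes, 3 fell and 2 rose, beside 14.3% and 13.0% of all tested genes, with a median log2 change of -0.03. Map2k6, a kinase upstream of p38 (-0.48), the JNK scaffold gene Mapk8ip3 (-0.43) and the p38 gene Mapk14 (-0.29) fell. The neuronal JNK gene Mapk10 rose from 12.2 and 12.3 FPKM to 17.8 and 16.8 (0.46), and Map2k4, a kinase upstream of JNK, rose as well (0.35). Their limma adjusted p ranged from 0.0127 to 0.0430. Each of these 5 calls was lost without control replicate 2 (limma adjusted p = 0.0900 for Map2k6, 0.0756 for Mapk8ip3, 0.250 for Mapk14, 0.0606 for Mapk10 and 0.0669 for Map2k4). All but Mapk8ip3 were also lost without control replicate 1 (0.124 for Map2k6, 0.129 for Mapk14, 0.0611 for Mapk10 and 0.171 for Map2k4). Without DCKO replicate 1, Mapk14 (0.0653) and Map2k4 (0.0662) were lost, and without DCKO replicate 2, Mapk14 (0.0867), Map2k4 (0.0881) and Map2k6 (0.0570). Among substrates and transcription factors of ERK, 2 of 12 tested genes fell in limma and 0 rose, beside 14.3% and 13.0% of all tested genes. At an unadjusted p below 0.05 there were 4 lower and 4 higher, where 5790 of all 13434 tested genes passed in either direction. Srf, the gene of the factor that binds CArG boxes, fell from 13.5 and 14.1 FPKM to 7.83 and 9.52 (log2 change -0.62, limma adjusted p = 0.0179). Elk1, its ERK-regulated partner, fell less (-0.37, limma adjusted p = 0.0351). The call of Srf was lost without control replicate 2 (limma adjusted p = 0.0589), and that of Elk1 without control replicate 1 (0.142), control replicate 2 (0.138) or DCKO replicate 2 (0.0609).

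Transcripts commonly used to read out ERK activity were counted in 2 lists. Among feedback regulators and targets of growth factor signals, 3 of 14 tested genes fell and 2 rose, beside 14.3% and 13.0% of all tested genes. Their median log2 change was -0.21. Etv1, an ETS factor of bulb interneurons, fell from 35.1 and 37.1 FPKM in control bulbs to 12.05 and 15.7 in DCKO (log2 change -1.33, limma adjusted p = 0.00502). The Ras pathway inhibitors Spry1 (-0.69) and Spred3 (-0.52) fell, while Spry2, of the same family, rose from 12.03 and 11.8 to 16.4 and 17.1 FPKM (0.45). Ccnd1, the cyclin D gene of cell cycle entry, rose as well (0.70, limma adjusted p = 0.00929). The call of Spry1 was lost without control replicate 1 (limma adjusted p = 0.0534) or DCKO replicate 1 (0.050006), and that of Spred3 without control replicate 2 (0.123), DCKO replicate 1 (0.0785) or DCKO replicate 2 (0.0504). That of Spry2 was lost without control replicate 1 (0.0562) or control replicate 2 (0.0707).

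Among the immediate early genes that synaptic activity induces, 15 of 18 fell and 0 rose in limma, also at an unadjusted p below 0.05, with a median log2 change of -2.75. Without DCKO replicate 1, or without DCKO replicate 2, 13 were called lower. Fos, a subunit of AP-1, fell from 87.7 and 66.5 FPKM to 7.90 and 10.01 (log2 change -2.97, limma adjusted p = 0.00146). Egr1, a zinc finger factor and direct target of the ERK and Srf route, fell from 158.1 and 141.5 FPKM to 8.09 and 11.3 (-3.83). Arc (-4.26), a synaptic effector, and Fosb (-4.19) fell as well. Ier3 (0.38), Ier5 (0.02) and Klf4 (-0.0018), named after their values were seen, did not pass. The decreases of Dusp5 (-2.43) and Dusp1 (-1.34) were smaller in size than those of Fos and Egr1, a difference between genes that was not tested.

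**Figure D4:**
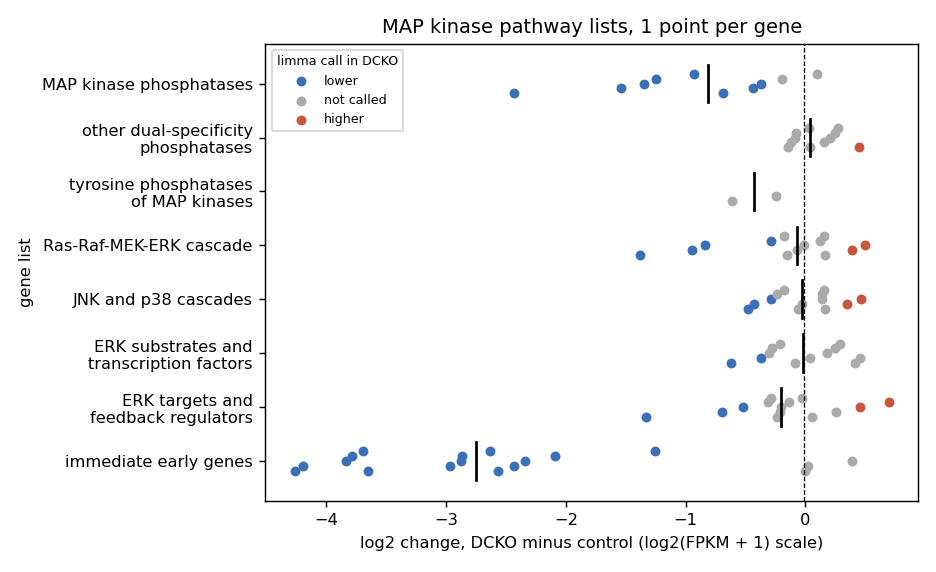
Log2 change (DCKO minus control, log2(FPKM + 1) scale) of each tested gene in 8 lists, 1 point per gene coloured by its limma call, with a bar at the median of each list and a dashed line at the median of all tested genes. The medians of the phosphatases (-0.81) and the immediate early genes (-2.75) lie left of those of the kinase cascades (-0.069 and -0.027).

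Over the 7 pathway lists other than the members, 27 of 83 tested genes fell and 7 rose. Without the immediate early genes, 12 of 65 fell (18.5%) and 7 rose (10.8%), beside 14.3% and 13.0% over all tested genes. The count of 7 that rose dropped to 2 without control replicate 1 and to 1 without control replicate 2.

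Markers of bulb cell types moved with the same comparison, and their part in the changes of the phosphatases was not tested. All 10 markers of granule cells and GABA neurons fell, with summed levels of 871 to 904 FPKM in control bulbs and 111 to 173 in DCKO. Their sum was higher in DCKO replicate 2 than in replicate 1, as were Dusp2, Dusp4, Dusp5, Dusp7, Dusp10 and Dusp14, whereas Dusp1, Dusp3, Dusp6 and Dusp8 were lower there. Some of these differences were small, as for Dusp3 (23.8 in replicate 1 and 23.4 FPKM in replicate 2) and Dusp6 (9.52 and 9.36). The DCKO libraries also differ in sex, and these directions were not tested. Markers of mitral and tufted cells rose for 8 of 9 tested genes (932 to 997 FPKM summed in the controls, 1584 to 1852 in DCKO), those of astrocytes for 6 of 10 (731 to 742 against 1157 to 1340) and those of microglia for 7 of 10 (113 to 115 against 186 to 195). Markers of endothelial cells rose for 4 of 10 (143 to 146 against 185 to 190 FPKM), of dividing cells for 8 of 9 (36.8 to 37.3 against 56.3 to 81.6) and of blood for 2 of 4 (330.5 to 549 against 1450 to 1959). In the oligodendrocyte lineage 0 of 10 passed in limma (1 higher at an unadjusted p below 0.05), and the sums overlapped (684 to 897 against 676 to 1139 FPKM). No marker of any list was at 0 in all 4 libraries, and the bulb neuron markers were present in the controls, as the tissue label says.

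**Figure D5:**
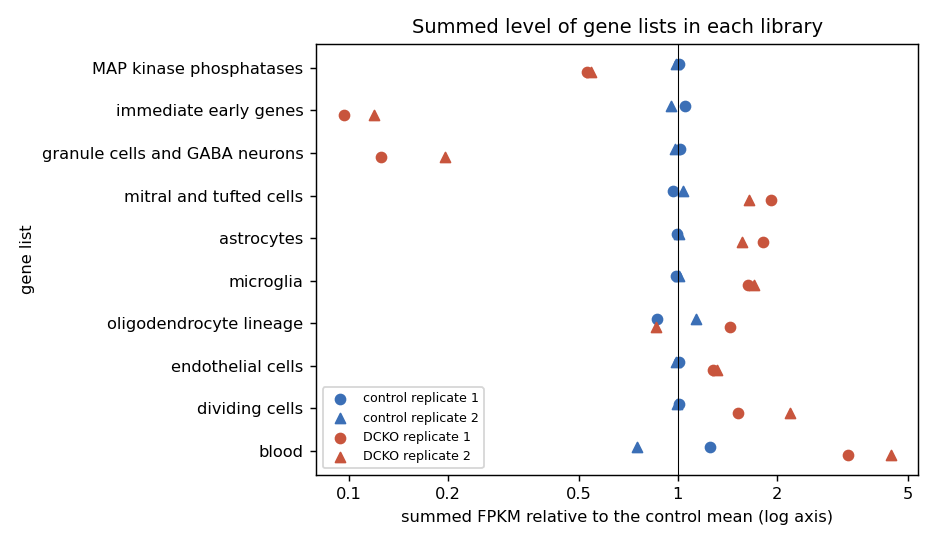
Summed FPKM of each gene list in the 4 libraries, relative to the control mean (log axis), for the phosphatases, the immediate early genes and 8 lists of cell type markers. The phosphatases lie at 0.528 and 0.544 in DCKO, between the granule cell and GABA neuron markers (0.125 and 0.195) and the other 7 marker lists, whose DCKO values are 0.855 or more.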

How the data were processed

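Total RNA of 4 olfactory bulb libraries was sequenced, per the labels' protocols. Per the submitters' processing notes, TopHat (version not given) and Cufflinks 2.1.1 were used with GRCm38.p4. For annotation, strand setting and shared reads, the choices were not given in the sources used here. FPKM columns were made by the authors, per the file headers. The columns headed count are treated as a deposited signal, fragment counts multiplied by 1 factor per library, because 98.7% to 98.9% of nonzero values fall less than 0.05 from whole multiples of 1 library-specific step. No count model was applied. Columns were mapped through the codes in the sample descriptions, and 0 were left unmapped.

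DCKO minus control was fitted on log2(FPKM + 1) in limma 3.58.1 (R 4.3.3), two-sided and with a trend of variance on expression, for 13434 genes averaging 1 FPKM or more, and p was adjusted by Benjamini-Hochberg over all of them. At an unadjusted p below 0.05, 5790 genes passed. Coordinates are from GENCODE M21 (GRCm38). The model was tested on simulated data. Members and lists were chosen with earlier results of these data known. Named by rule were all members, Sp8, Sp9, Mapk3, Fos, Egr1, Arc, Dusp9 and Dusp16, the 3 called genes of largest change per list and direction (or, with no call, the 2 of highest mean) and the 3 genes most like the called member of largest fall; no member was called higher. A listed pathway gene is not reported here. Alternatives covered the pseudocount, filter, scaling, variance trend, replicate block, scaled counts and each library left out.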

Additional observations from a re-analysis of the deposited data

How the results depend on the processing

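The calls and directions of Dusp1, Dusp4, Dusp5, Dusp6 and Dusp14 held under all 14 alternatives, with log2 changes of -1.61 to -1.08, -1.51 to -0.99, -2.75 to -2.23, -1.03 to -0.84 and -1.74 to -1.34. Dusp3 stayed above 0 and uncalled in all 14. Dusp2, uncalled in all 13 that kept it, turned to 0.063 without DCKO replicate 1 and ranged from -0.46 to 0.063 with 1 library left out. With 1 library left out, where a lone library is assumed to vary like the other pair, members called lower numbered 5 to 7. All tested genes called lower then numbered 1030 to 1875 and those called higher 806 to 1384, and pathway genes called higher numbered 1 to 5. With no filter, 4 pathway genes were called higher. No shared difference by replicate number was seen (r = -0.02 between the differences of same-numbered libraries over 13434 genes). This cannot tell whether the numbers mark a litter or batch, which no label states. With a replicate block, 6 members were called lower, and Dusp8 (limma adjusted p = 0.0503) and Dusp10 (0.0659) were lost. The uncalled Ier5 ranged from -0.17 (without DCKO replicate 2) to 0.22 with 1 library left out, and the uncalled Klf4 from -0.17 to 0.16, above 0 without control replicate 1 or DCKO replicate 2. Klf4 also turned to 0.00073 with a pseudocount of 0.1 FPKM, 0.041 with upper quartile scaling, 0.015 with median ratio centring and 0.042 on scaled counts. Of the 28 other named genes that were called, 14 kept their call under every alternative run. With no filter the calls of Dusp26, Shc1, Map2k6, Mapk14, Map2k4, Elk1, Spred3 and Braf were lost, with quantile normalization or upper quartile scaling those of Mapk14, Elk1 and Braf, with median ratio centring that of Mapk14, with no variance trend those of Shc1, Mapk14, Map2k4 and Braf, and with the replicate block those of Shc1, Mapk14, Elk1 and Braf, while Ptpn5 passed (adjusted p = 0.0173). Count tests on recovered whole fragments were planned and not run, because the columns headed count are a scaled signal. Low depth limits Dusp2 and Dusp10, and 2 libraries per group limit every result.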
